A study of Mus musculus with 4 samples.

Results

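The kinesin superfamily of mouse was examined in 2 colorectal cancer lines, in cells with knockdown of Aurora-A and in parallel control cells. Members were taken by name, as every gene whose symbol is Kif or Kifc followed by a number, leaving out names that end in -ps or os. This gave 42 of the 51905 genes in the deposited files. By the roles known for them, 12 are mitotic kinesins, 16 are transport kinesins, 7 are ciliary kinesins, 2 are other microtubule-depolymerising kinesins (Kif2a and Kif2b) and 4 are other motors (Kif12, Kif26a, Kif26b and Kifc5b). The remaining gene, Kif1bp, encodes a binding protein that holds kinesins off microtubules and is not itself a motor. The 12 mitotic kinesins were set against the other 29 motors in each line.

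The lines were CT26 and MC38, both from mouse colon tumors and described as wild type. Each was infected with a lentivirus that expresses a short hairpin RNA (shRNA), which targets either GFP as a control (shGFP) or the mouse Aurora-A transcript (shmaurka-1), and RNA was collected 48 h after seeding. Infected cells had been selected with puromycin, so all 4 libraries come from cells that carry a lentiviral shRNA. Each combination of line and hairpin was sequenced as 1 library, and only 1 hairpin against Aurora-A was used. The difference within a line therefore has no replicate behind it, and effects of this hairpin and of less Aurora-A cannot be told apart. The labels call CT26 fibroblast and MC38 epithelial cells. Of 10 epithelial markers, Epcam reached no more than 3 fragments in any library, and the summed level was 43.0 and 42.7 FPKM in CT26 (shGFP and shmaurka-1), most of it from Krt18 and Krt20, but 1.82 and 1.28 FPKM in MC38. Vil1, Esrp1 and Cdh1 were all under 1 FPKM and higher in MC38. Of 10 fibroblast markers, the summed level was 525 and 548 FPKM in CT26 and 346 and 295 FPKM in MC38, most of it from Vim. The epithelial label of MC38 thus had little support in its defining markers. The summed level of 6 leukocyte markers was between 3.54 and 5.38 FPKM, most of it from the macrophage gene Cd68 (3.30 to 4.97 FPKM), whereas Ptprc and Cd3e had at most 3 fragments in all libraries.

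Kinesins are motor proteins that use ATP to move along microtubules or to take them apart at their ends. Mitotic kinesins separate the spindle poles, align chromosomes and build the midzone on which cytokinesis depends, and their transcripts are made mainly in G2 and M phase. Transport kinesins carry vesicles, organelles and RNA through the cytoplasm, and ciliary kinesins build the cilium or act at its tip and base. Aurora-A is a mitotic kinase that acts on spindle poles, and several mitotic kinesins are among the proteins it is known to phosphorylate.

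The libraries held 22207768 to 23752269 fragments, as recovered from the deposited estimated counts. Aurka, which encodes Aurora-A, went from 5724 fragments with shGFP to 1093 with shmaurka-1 in CT26 and from 2300 to 413 in MC38, so its level bore out the hairpin labels. On the log2 scale these are changes of -2.28 and -2.44. Fold changes compare shmaurka-1 with shGFP on counts scaled between libraries, so fragments alone do not give them. The range in parentheses after a log2 fold change is an exact 95% interval that covers the counting error of those 2 libraries only. Of the 42 members, 29 reached a mean of 10 counts in CT26 and 35 in MC38, and were compared there. In bulk RNA, fewer cells in mitosis and less RNA per cell cannot be told apart. In the files, 25 of the 42 members and 9 of the 12 mitotic ones share their locus with other genes. The paper states that the libraries were made with a strand-specific kit. Whether counting used the strand is not given in the sources used here, so the values of these members are uncertain to that extent. The 3 mitotic kinesins with a locus of their own are Kif11, Kif23 and Kif2c.

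The promoters of mitotic kinesins shared sequence features that the choice of members did not use. Windows from 250 bases before to 50 bases after the start came from RefSeq (GRCm38.p6) and matched 33 of the 42 members, 11 of them mitotic. The members with no window are Kif13b, Kif19a, Kif1bp, Kif20a, Kif21b, Kif5a, Kif5b, Kifc2 and Kifc3. Both strands were searched for the cell cycle genes homology region (CHR, TTTGAA) and the Y box (CCAAT), elements known from promoters of G2 and M phase genes. Stretches from 70 bases before to 10 bases after the start are printed on the strand of the gene for 6 mitotic kinesins that have a CHR match there and for 2 transport kinesins without one. Capitals mark CHR and Y box matches, which read TTCAAA and ATTGG where they lie on the opposite strand.
Kif11: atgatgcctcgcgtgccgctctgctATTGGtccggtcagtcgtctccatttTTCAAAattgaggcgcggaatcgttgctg
Kif15: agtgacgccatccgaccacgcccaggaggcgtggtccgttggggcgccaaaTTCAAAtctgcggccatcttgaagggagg
Kif22: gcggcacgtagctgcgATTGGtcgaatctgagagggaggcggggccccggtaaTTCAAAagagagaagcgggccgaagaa
Kif18b: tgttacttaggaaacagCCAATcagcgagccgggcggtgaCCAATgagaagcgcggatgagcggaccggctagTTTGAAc
Kif23: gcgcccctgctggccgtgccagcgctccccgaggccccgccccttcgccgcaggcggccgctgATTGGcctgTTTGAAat
Kifc1: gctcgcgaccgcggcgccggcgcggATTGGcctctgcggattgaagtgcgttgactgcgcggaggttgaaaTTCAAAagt
Kif3b: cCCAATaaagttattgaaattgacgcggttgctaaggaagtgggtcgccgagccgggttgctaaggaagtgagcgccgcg
Kif1c: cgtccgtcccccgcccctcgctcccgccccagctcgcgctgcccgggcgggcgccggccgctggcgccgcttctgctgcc

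In GRCm38 these stretches are chr19:37376312-37376391 (+) for Kif11, chr9:122951011-122951090 (+) for Kif15, chr7:127042411-127042490 (-) for Kif22, chr11:102925115-102925194 (-) for Kif18b, chr9:61946790-61946869 (-) for Kif23, chr17:33890624-33890703 (-) for Kifc1, chr2:153291346-153291425 (+) for Kif3b and chr11:70700478-70700557 (+) for Kif1c. Each holds the annotated start. The CHR match began at position -19 in Kif11 and in Kif15, at -17 in Kif22, at 2 in Kifc1, at 3 in Kif23 and at 4 in Kif18b, with positions counted from the start and none numbered 0. The Y box lay upstream of the CHR match in Kif11, Kif22, Kif18b, Kif23 and Kifc1, whereas the printed stretch of Kif15 held none. A CHR match was present in 10 of the 11 mitotic windows (90.9%), all but that of Kif18a. It was present in 4 of 26 windows of the other members (15.4%) and in 17.9% of all 32851 windows of the table. Counted from 60 bases before the start onward, the shares were 72.7%, 11.5% and 5.50%. The Y box was less selective by itself, with 63.6% of mitotic windows, 38.5% of the windows of other members and 37.4% of all windows. Both elements occurred together in 7 mitotic windows and in 3 windows of other members, against 6.95% of all windows. An E2F site, sought as GCGGGAA or GCGCGAA, was found in no mitotic window, in 3 windows of other members and in 6.0% of all windows. The CHR variant TTCGAA was found in no mitotic window, in 1 window of another member, Kif24, and in 1.56% of all windows. These matches describe the letters in the windows and were not tested for function or for chance.

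**Figure D1:**
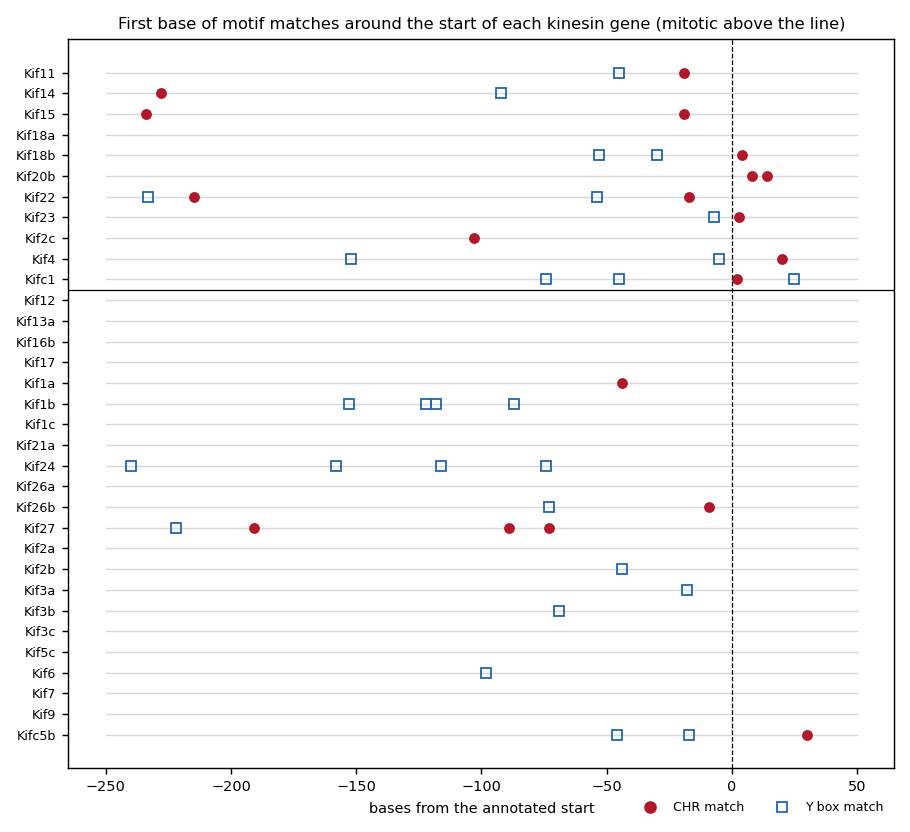
Positions of CHR (filled circles) and Y box (open squares) matches from 250 bases before to 50 bases after the annotated start of each kinesin gene with a RefSeq window, with several windows of a gene drawn on 1 line. CHR matches crowd near the start in the mitotic kinesins above the line and are rare below it.

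In CT26, all 12 mitotic kinesins were higher in the knockdown library. Their median log2 fold change was 0.65, from 0.40 for Kif18a to 1.13 for Kif11, beside -0.02 over the 12753 genes compared. In MC38, 10 of the 12 were lower, with a median of -0.12 and a range from -0.27 for Kif23 to 0.12 for Kifc1, beside 0.00 over 13836 genes. The other kinesins had medians of -0.04 over 16 compared in CT26 and -0.08 over 22 in MC38. In CT26 12 of the 16 were lower, but 8 with DESeq2 size factors and 8 by the deposited FPKM, and in MC38 17 of the 22 were lower, a tally like that of the mitotic kinesins in that line. Over all genes compared, 6904 of 12753 were lower in CT26 and 6844 of 13836 in MC38. Summed over the 12 mitotic kinesins, the deposited level went from 279.8 to 464 FPKM in CT26 and from 199.98 to 189 FPKM in MC38. The sum over the other motors was 248 and 254 FPKM in CT26 and 297 and 279.7 FPKM in MC38.

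Past the thresholds that the study used for its heat map, above 1.5-fold or under 0.6-fold, were 7 mitotic kinesins in CT26, all above, where 3.46% of all genes compared were above. These were Kif11, Kif22, Kif15, Kif14, Kif20a, Kif4 and Kif2c, with Kif2c the nearest inside at 1.52-fold and Kif23 the nearest outside at 1.49-fold. The counting interval lay above no change for all 12 in CT26, against 19.1% of all genes. No mitotic kinesin passed either threshold in MC38, where 3.82% of genes were above 1.5-fold and 1.79% under 0.6-fold. There the interval lay below no change for 6 of the 12 (Kif18b, Kif20a, Kif20b, Kif22, Kif23 and Kif2c), against 20.1% of all genes, and above it for Kifc1 alone, against 22% of all genes. The directions of the 12 were the same with total-count scaling and with DESeq2 size factors in both lines, while by the deposited FPKM Kif15 was higher in MC38. The 3 mitotic kinesins with a locus of their own, Kif11, Kif2c and Kif23, lay at 1.13, 0.60 and 0.57 on the log2 scale in CT26 and at 0.07, -0.21 and -0.27 in MC38.

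**Figure D2:**
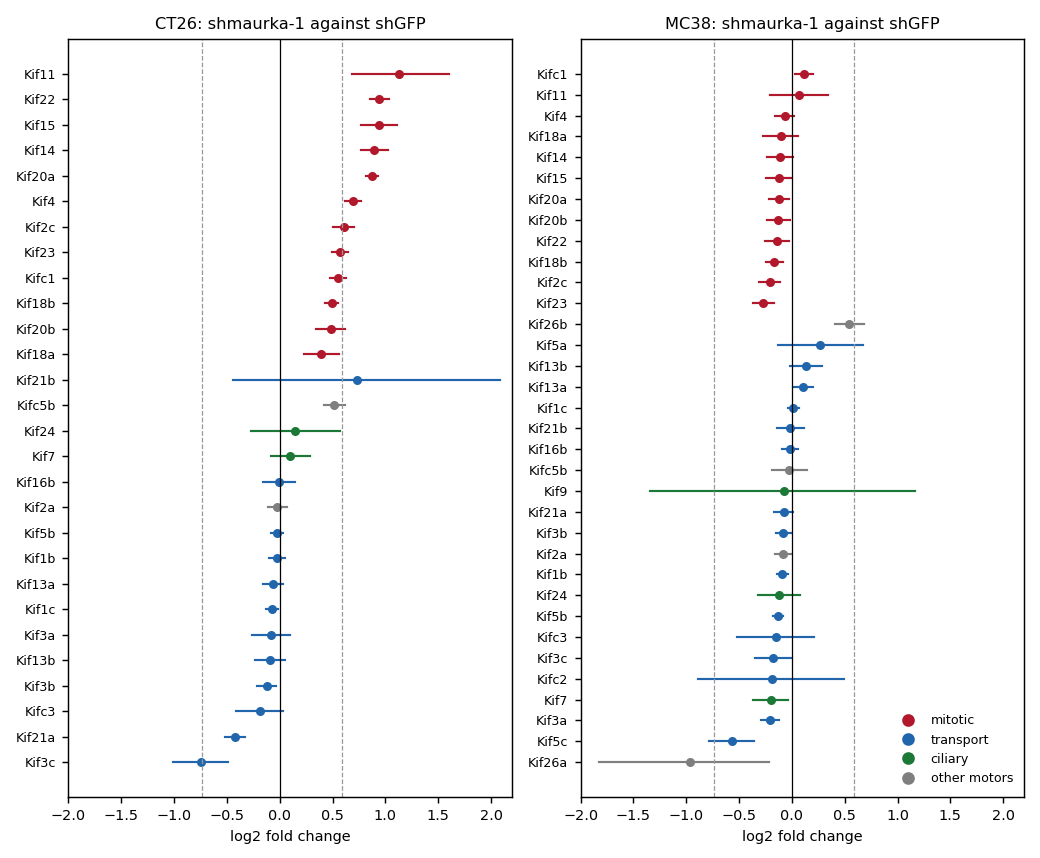
Log2 fold change of each kinesin compared, shmaurka-1 against shGFP, in CT26 (left) and MC38 (right). Points are the fold changes from 1 library per condition, bars are exact 95% counting intervals, and dashed lines mark 1.5-fold and 0.6-fold. All 12 mitotic kinesins lie to the right of 0 in CT26, and 10 of the 12 lie to the left of it in MC38.

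Among the motors that shape the bipolar spindle, Kif11 pushes the spindle poles apart, Kif15 can take over part of that task, and Kifc1 is a minus-end motor that gathers microtubules into poles. Kif11 had 61 fragments in CT26 shGFP, 125 in CT26 shmaurka-1, 221 in MC38 shGFP and 226 in MC38 shmaurka-1. It was the lowest of the mitotic kinesins in all 4 libraries, at 0.676, 1.48, 2.0 and 2.10 FPKM in the same order, and it had the largest fold change of the 12 in CT26 with the widest interval. On the log2 scale the fold change was 1.13 (0.69 to 1.60) for CT26 and 0.07 (-0.21 to 0.34) for MC38. Kif15 had 439 and 784 fragments in the control and knockdown libraries of CT26, against 1146 and 1028 for the same pair of MC38 libraries. The log2 fold change reached 0.94 (0.77 to 1.11) for CT26 and was -0.12 for MC38, where the interval, -0.24 to 0.00, just included no change and the deposited FPKM went the other way, from 11.8 to 13.4. The CT26 control library thus stood low and the other 3 libraries lay closer together. Kifc1 had 2495 and 3410 fragments in CT26 and 2216 and 2343 in MC38. It was higher with the knockdown in both lines, with log2 fold changes of 0.56 (0.48 to 0.63) and 0.12 (0.03 to 0.20).

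Kifc5b is a close copy of Kifc1, and 37.7% of the 50-base stretches in the Kifc1 transcripts of GENCODE vM39 also occur in those of Kifc5b, so the division of fragments between them is uncertain. Kifc5b had 1452 and 1934 fragments in CT26, and 630 and 604 in MC38. The knockdown library differed from its control by 0.52 (0.42 to 0.62) on the log2 scale in CT26 and, in MC38, by -0.03 (-0.19 to 0.14). In CT26 it was the only motor outside the mitotic list whose interval lay above no change. For the sum of the pair, log2 fold changes were 0.54 for CT26 and 0.09 for MC38.

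The chromosome-bound and kinetochore motors were all higher in CT26 and lower in MC38, though in MC38 the intervals of Kif4 and Kif18a included no change. Kif22 and Kif4 are chromokinesins that push chromosome arms toward the spindle equator, Kif18a restrains chromosome oscillation, and Kif2c and Kif18b take microtubules apart. Kif22 had 1592 and 2847 fragments in CT26 and 1389 and 1227 in MC38, and the CT26 knockdown library was the highest. This gave log2 fold changes of 0.94 (0.85 to 1.03) for CT26 and -0.14 (-0.26 to -0.03) for MC38. Kif4 had 2503 and 3769 fragments in CT26 and 2096 and 1952 in MC38, with log2 fold changes of 0.69 (0.62 to 0.77) and -0.07 (-0.16 to 0.02). Kif2c had 1339 and 1893 fragments in CT26 and 1751 and 1475 in MC38. The direction was opposite in the lines, at 0.60 in CT26 (0.50 to 0.71) and -0.21 in MC38 (-0.31 to -0.11). Kif18b, whose locus in the files also covers 11 other genes, had 3491 and 4561 fragments in CT26 and 2677 and 2327 in MC38. On the log2 scale the fold change was 0.49 (0.43 to 0.55) for CT26 and -0.17 (-0.25 to -0.09) for MC38. Kif18a had the smallest difference of the 12 in CT26, from 563 to 689 fragments, or 0.40 on the log2 scale (0.23 to 0.56). The MC38 libraries held 625 and 567 fragments, with an interval that included no change (-0.27 to 0.06).

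The motors of the midzone and of cytokinesis included Kif23 and Kif20a, the most abundant mitotic kinesins of CT26 by FPKM, and the much less abundant Kif14 and Kif20b. Kif23 is a subunit of centralspindlin, Kif20a brings the chromosomal passenger complex to the midzone, Kif14 acts with citron kinase at the midbody, and Kif20b takes part in late cytokinesis. Kif20a had 4373 fragments in CT26 shGFP, 7456 in CT26 shmaurka-1, 1997 in MC38 shGFP and 1790 in MC38 shmaurka-1. Both CT26 libraries lay above both MC38 libraries, and the CT26 knockdown library was the highest. The knockdown library differed from its control by 0.87 (0.82 to 0.93) on the log2 scale in CT26 and, in MC38, by -0.12 (-0.22 to -0.03). Kif23 had 2441 and 3380 fragments in CT26 and 1895 and 1533 in MC38. This gave log2 fold changes of 0.57 (0.50 to 0.65) for CT26 and -0.27 (-0.37 to -0.17) for MC38, the lowest of the 12 there. By FPKM, Kif20a (91.2) and Kif23 (89.2) were the highest kinesins in the CT26 knockdown library. Kif14 had 830 and 1438 fragments in CT26 and 1119 and 1010 in MC38, with log2 fold changes of 0.90 (0.77 to 1.02) and -0.11 (-0.24 to 0.01). Kif20b had 741 and 963 fragments in CT26 and 1447 and 1290 in MC38, with log2 fold changes of 0.48 (0.34 to 0.62) and -0.13 (-0.24 to -0.02). For Kif20b, as for Kif11 and Kif15, the CT26 control library was the lowest of the 4. Both MC38 libraries lay above both CT26 libraries by fragments and by FPKM. With TMM scaling, however, the shmaurka-1 libraries of the lines were near equal for Kif15 and Kif20b (log2 -0.0038 and -0.035, CT26 minus MC38).

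**Figure D3:**
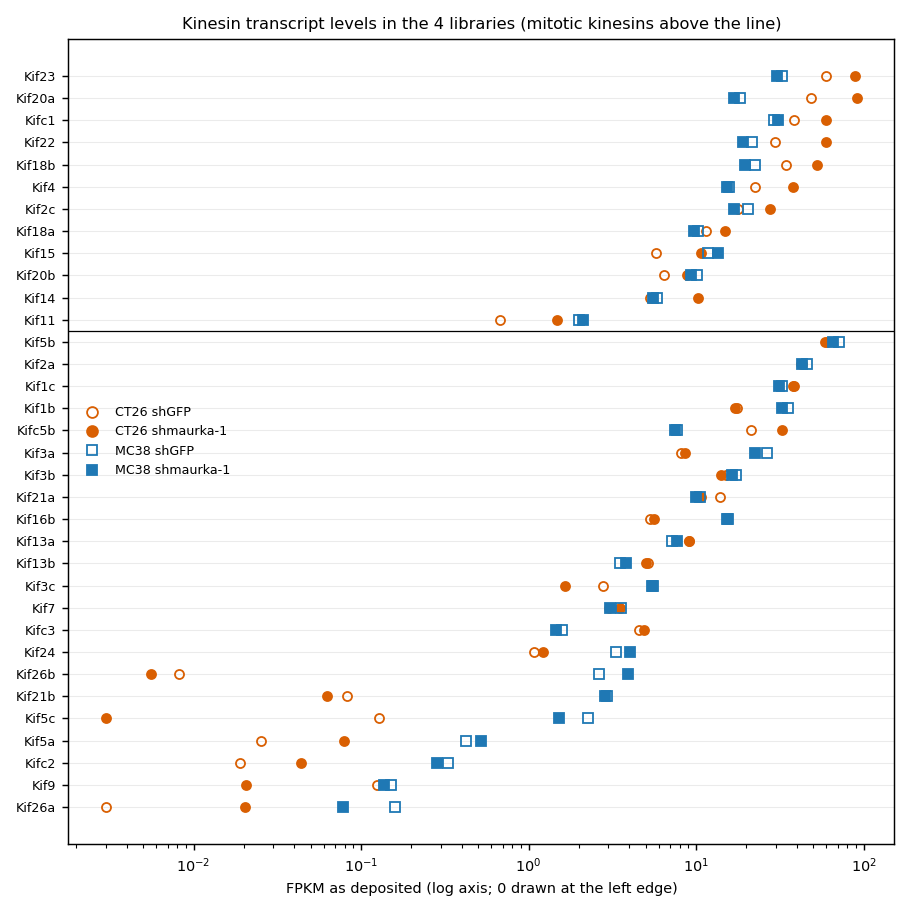
Deposited FPKM of each kinesin that reached a mean of 10 counts in either line, on a log axis, in the 4 libraries (open symbols shGFP, filled shmaurka-1, circles CT26, squares MC38). For the mitotic kinesins above the line, the filled circle lies to the right of the open circle in every case, while the squares nearly coincide.

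Of the 16 transport kinesins, 12 were compared in CT26 and 15 in MC38, with median log2 fold changes of -0.08 in each line. In CT26, 11 were lower, but 3 of them (Kif16b, Kif1b and Kif5b) had the other direction with DESeq2 size factors. By the deposited FPKM, Kif13a, Kif16b, Kif1c, Kif3a and Kifc3 were higher and Kif21b lower, so small differences have no firm sign. The most abundant was Kif5b, a heavy chain of conventional kinesin, at 60.2 and 58.7 FPKM in CT26 and 71.2 and 65.8 FPKM in MC38. On the log2 scale the fold change was -0.03 (-0.08 to 0.03) for CT26 and -0.13 (-0.18 to -0.09) for MC38. The vesicle motors Kif1b and Kif1c lay at -0.03 and -0.07 on the log2 scale in CT26 and at -0.09 and 0.01 in MC38. The endosome and vesicle motors Kif13a, Kif13b and Kif16b lay between -0.09 and 0.00 in CT26 and between -0.02 and 0.13 in MC38.

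Among the kinesins that reached the count filter in CT26, the largest decrease was in Kif3c, a neuronal partner of Kif3a, with 345 and 191 fragments. Its fold change of 0.596 (log2 -0.75, -1.01 to -0.49) was just under the threshold of 0.6, which 3.44% of all genes compared passed, and its locus in the files also covers Asxl2 and 3 other genes. In MC38 Kif3c had 573 and 495 fragments, or -0.18 on the log2 scale (-0.35 to 0.00). Kif3a and Kif3b, which form the motor for cilium assembly and for transport, lay nearer to no change. Kif3a differed by -0.08 for CT26 and -0.21 for MC38 on the log2 scale (-0.30 to -0.12), and Kif3b of -0.12 (-0.21 to -0.03) and -0.08. Kif21a, a motor that steadies microtubule ends, went from 2282 to 1582 fragments in CT26, or -0.42 on the log2 scale (-0.52 to -0.33), and from 2100 to 1945 in MC38. With Kif1c, these made 4 transport kinesins whose interval lay below no change in CT26 (Kif1c, Kif21a, Kif3b and Kif3c), against 22.6% of all genes. Kif21b had 10 and 16 fragments in CT26, which put it at 1.66-fold with an interval from -0.45 to 2.08 on the log2 scale, while its deposited FPKM went from 0.0825 to 0.0628. A change in Kif21b was not detectable at this depth. The minus-end motor Kifc3 had 384 and 313 fragments in CT26 and 137 and 120 in MC38, and both intervals included no change.

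In MC38, 8 of the 22 other motors compared had an interval below no change, against 20.1% of all genes, and 2, Kif13a and Kif26b, above it, against 22% of all genes. Kif5c, a heavy chain of conventional kinesin found mainly in neurons, had 448 and 294 fragments, or -0.57 on the log2 scale (-0.79 to -0.36). Kif26b, which has a role in cell adhesion during kidney development, had 781 and 1112 fragments, the largest increase of any kinesin in that line at 1.46-fold (log2 0.54, 0.41 to 0.68). Its relative Kif26a, with 43 and 21 fragments, was the only kinesin of MC38 past a threshold, at 0.51-fold with a wide interval on the log2 scale (-1.82 to -0.21). Kif5a had 98 and 115 fragments, Kifc2 41 and 35, and Kif21b 1009 and 974, and the intervals of these included no change. The depolymerising motor Kif2a was among the most abundant kinesins, between 42.3 and 46.2 FPKM in the 4 libraries, with log2 fold changes of -0.02 for CT26 and -0.09 for MC38.

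The ciliary kinesins were mostly absent or low. Kif7, which acts at the cilium tip in Hedgehog signaling, had 478 and 477 fragments in CT26 and 670 and 568 in MC38. The knockdown library differed from its control by 0.10 (-0.09 to 0.29) on the log2 scale in CT26 and, in MC38, by -0.20 (-0.37 to -0.04). Kif24, which holds back cilium assembly at the centriole, had 97 and 100 fragments in CT26 and 428 and 384 in MC38, with intervals that included no change in both lines. Kif9 had 9 and 1 fragments in CT26, below the filter, with an interval from -8.52 to -0.21 on the log2 scale, and 13 and 12 in MC38, and Kif19a at most 8. Kif6, Kif27 and the depolymerising motor Kif2b were listed at 0 in all 4 libraries, where a count of 0 allows up to 3 fragments in each. Kif17 had 2 fragments in MC38 shGFP and was listed at 0 in the others, Kif12 had at most 1 fragment, and Kif1a, a neuronal vesicle motor, had at most 8. The binding protein Kif1bp was lower with the knockdown in both lines, with 870 and 676 fragments in CT26 (log2 -0.26, -0.41 to -0.11) and 1310 and 1064 in MC38 (log2 -0.26, -0.38 to -0.15).

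**Figure D4:**
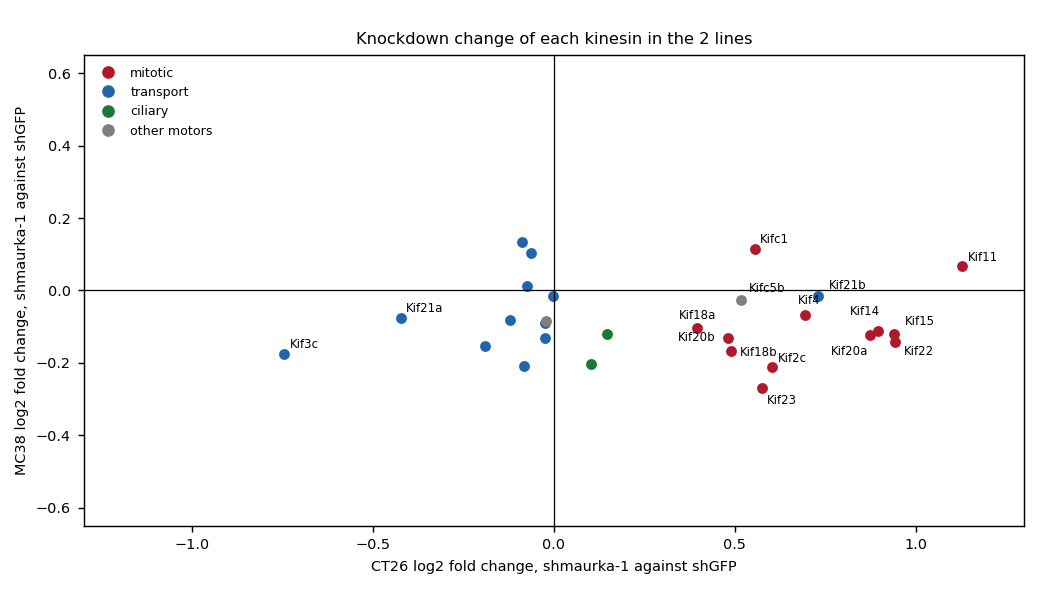
Log2 fold change in MC38 against that in CT26 for the kinesins compared in both lines, colored by role, 1 library per condition. The mitotic kinesins span 0.40 to 1.13 along the CT26 axis and -0.27 to 0.12 along the MC38 axis, and most other motors lie near the origin.

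Of the 12 mitotic kinesins, 10 were higher in CT26 and lower in MC38, where 19.3% of the 11928 genes compared in both lines had those directions. For 6 of the 10 the counting intervals lay on opposite sides of no change, as they did in the same sense for 3.14% of these genes. This difference could not be tested, because 1 library per condition leaves no spread to set it against. What can be tested is the effect averaged over both lines, with the line as a block, by edgeR's quasi-likelihood test with Benjamini-Hochberg adjustment over 13984 genes. It called 4 kinesins higher, where 1.41% of genes were called higher, and 0 lower, where 1% of genes were called lower. The 4 were Kif20a (log2 0.40 ± 0.10 SE, adjusted p = 0.0061), Kif22 (0.42 ± 0.11, adjusted p = 0.0094), Kifc1 (0.34 ± 0.10, adjusted p = 0.040) and Kif14 (0.40 ± 0.12, adjusted p = 0.043) by that edgeR test. Of these, Kif14, Kif20a and Kif22 were lower in MC38, so a call here does not require that both lines had the same direction. The median over the 12 mitotic kinesins was 0.33, beside -0.01 over all genes, and over the 21 other motors tested it was -0.05. At an unadjusted p under 0.05 there were 12 kinesins, 9 higher and 3 lower, where 5.86% of all genes were higher and 5.39% lower at that p. The calls depended on the settings. DESeq2's Wald test, which called 0.365% of all genes, and limma-voom, which called 0.844%, called 0 kinesins each, as did edgeR with a mean of at least 50 counts, which called 1.91% of all genes. The fit has 1 residual degree of freedom and takes the spread of each gene from the trend over all genes.

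The levels of most kinesins differed between the lines, in shares near those over all genes. In the same edgeR fit, with the hairpin as a term, 15 of the 33 motors tested (45.5%) were higher in CT26, where 36.5% of all genes were called higher, and 14 (42.4%) were higher in MC38, where 39.6% of all genes were. Kif1bp was also higher in MC38. With total-count scaling, which shifts the median of all genes from -0.04 to -0.38 on the log2 scale, the split was 8 higher in CT26 (25.7% of all genes) and 18 higher in MC38 (51.1%). The calls of Kif14, Kif18a, Kif2c, Kif13a, Kif13b, Kif1c and Kif21a were then lost. Of the mitotic kinesins, 9 were higher in CT26 with TMM scaling and 6 with total-count scaling, led by Kif20a (log2 1.93 ± 0.10 SE), Kif23 (1.09 ± 0.11), Kif22 (1.04 ± 0.11) and Kif18b (1.01 ± 0.10). Between the shGFP libraries alone, the differences of Kif20a, Kif23, Kif22 and Kif18b were smaller, at 1.45, 0.68, 0.51 and 0.70. Between the shmaurka-1 libraries alone they were larger, at 2.44, 1.53, 1.60 and 1.36. Kif11 (-0.97 ± 0.22), Kif15 (-0.54 ± 0.13) and Kif20b (-0.36 ± 0.12) were higher in MC38. In the shmaurka-1 libraries alone, Kif15 and Kif20b were near equal in the lines (-0.0038 and -0.035), and DESeq2 called none of these 3. For Kif14 and Kif2c the direction came from the knockdown libraries, because in the shGFP libraries alone both were slightly lower in CT26. The 2 libraries of a line differ in hairpin and are not replicate cultures of 1 condition, so these errors rest on that assumption.

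The largest differences between the lines were in kinesins that CT26 hardly expressed. Kif26b had 3 and 1 fragments in CT26 against 781 and 1112 in MC38, a ratio of 209 between the shGFP libraries (interval 71.4 to 1018) and of 853 between the knockdown libraries (interval 153 to 33720). Kif5c had 3 and 0 fragments in CT26 against 448 and 294 in MC38, a ratio of 120.1 between the shGFP libraries (interval 40.8 to 585), and in the knockdown libraries it was at least 75.2-fold higher in MC38 against the floor of 3 fragments. Kif21b was 81.2-fold higher in MC38 between the shGFP libraries (interval 44.0 to 170). Kif5a was 15.8-fold higher in MC38 (interval 6.53 to 49.6) and Kifc2 16.5-fold (interval 4.28 to 141) in the same comparison. Between the knockdown libraries the ratios of these 3 were lower, at 46.7 for Kif21b (interval 28.6 to 82.0), 11.02 for Kif5a (interval 5.41 to 26.1) and 6.71 for Kifc2 (interval 2.40 to 25.99). Kif26a, with 0 fragments in CT26 shGFP, was at least 11.5-fold higher in MC38 against the same floor, and between the knockdown libraries, with 21 and 4 fragments, the ratio was 4.03 (interval 1.36 to 16.1). In the other direction, Kifc5b (log2 1.78 ± 0.12 SE) and Kifc3 (1.77 ± 0.19) were higher in CT26, and Kif3a (-1.69 ± 0.12), Kif24 (-1.70 ± 0.20), Kif16b (-1.54 ± 0.11) and Kif1b (-0.90 ± 0.10) were higher in MC38. No difference between the lines was called for Kif7, Kif2a, Kif5b and Kif3b, with adjusted p of 0.81, 0.14, 0.067 and 0.053 by edgeR's quasi-likelihood test, but all 4 were called higher in MC38 with total-count scaling, and Kif3b and Kif5b were called with a mean of at least 50 counts.

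**Figure D5:**
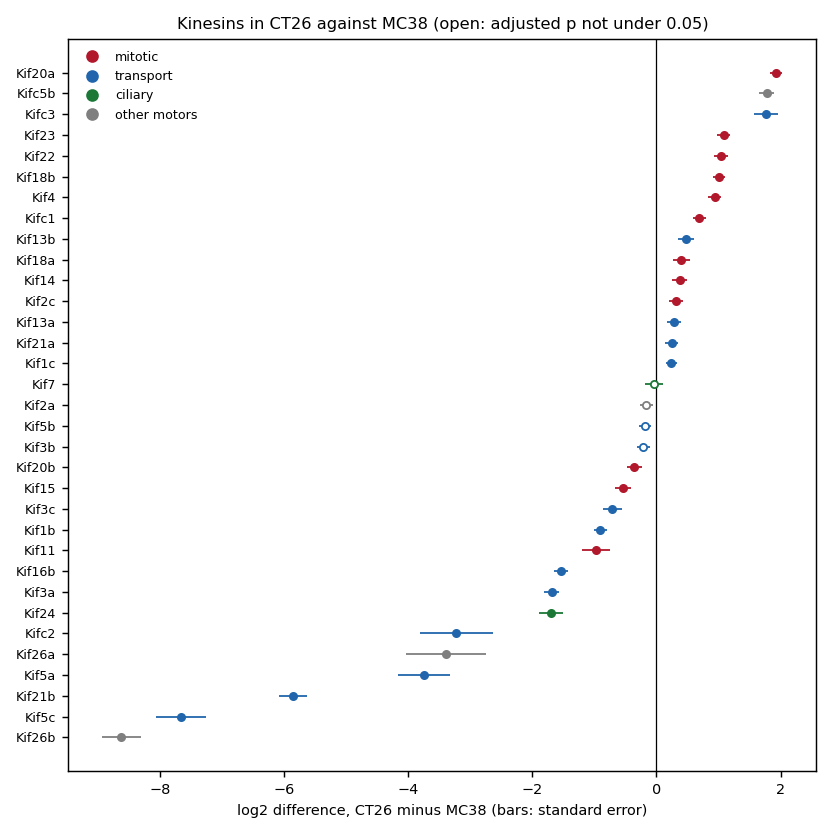
Log2 difference between CT26 and MC38 for the kinesins tested, with standard errors from the edgeR fit over 4 libraries, where positive values are higher in CT26 and open points had an adjusted p not under 0.05. With TMM scaling the mitotic kinesins range from -0.97 (Kif11) to 1.93 (Kif20a), and Kif26b, at -8.62, and Kif5c, at -7.66, stand farthest from 0, values that depend on the count added because both are near 0 in CT26.

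Genes that work with the mitotic kinesins had similar values, though their list was chosen with earlier results of these data known. Of 23 such partners, kinases, cyclins and passenger proteins without Aurka, 22 were higher in the CT26 knockdown library, 12 of them above 1.5-fold, with a median log2 fold change of 0.60, where 5849 of 12753 genes were higher and 3.46% above 1.5-fold. In MC38, 18 of the 23 were lower, 13 with an interval below no change (20.1% of all genes), and none passed a threshold, with a median of -0.08. Aurkb, the kinase of the chromosomal passenger complex, had 1243 and 2073 fragments in CT26 and 2034 and 1803 in MC38 (log2 0.84 and -0.14). Birc5, a subunit of the same complex, had log2 fold changes of 0.74 and -0.05. Ccnb1, the cyclin of mitotic entry, had 0.75 and -0.31, and the proliferation marker Mki67 0.74 and -0.05. The S phase genes, which peak earlier in the cycle, had medians of 0.15 in CT26 (22 compared) and 0.11 in MC38 (23 compared), and none passed a threshold in either line. Of these genes, 19 were higher with the knockdown in CT26 and 16 in MC38. Their interval lay above no change for 13 in CT26 and 12 in MC38, against 19.1% and 22% of all genes. It lay below no change for 1 and 3, against 22.6% and 20.1%. Cdc6, which licenses replication origins, differed by 0.54 and 0.47 on the log2 scale in CT26 and MC38, Rrm2, a subunit of ribonucleotide reductase, 0.53 and 0.42, Ccne1 0.26 and 0.44, and E2f1 0.24 and 0.43. The part of the cell cycle distribution in these values was not tested.

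The partners of the other kinesins had medians near no change. Cargo adaptors and light chains of transport kinesins had medians of 0.03 in CT26 and -0.05 in MC38 (19 compared in each). In CT26 the interval lay above no change for 6 and below it for 9, against 19.1% and 22.6% of all genes. In MC38 these numbers were 2 and 4, against 22% and 20.1%. The members thus went both ways in CT26, and 2 genes were under 0.6-fold there, where 3.44% of all genes were. The first, Klc3, a kinesin light chain, had 158 and 86 fragments in CT26 (log2 -0.77, -1.17 to -0.39), and 183 and 140 in MC38. The other, Mapk8ip1, a cargo adaptor named after its values were seen, had 56 and 24 fragments in CT26. Bicd1 differed by -0.67 and -0.12 on the log2 scale in CT26 and MC38, Klc4 -0.41 and -0.19, and Dennd4a 0.34 and -0.03. Genes of intraflagellar transport, the cargo trains of the cilium, had medians of 0.07 (17 compared) and 0.03 (16 compared). Bbs1, also named after its values were seen, was the only one of the 17 under 0.6-fold in CT26, against the same 3.44% of all genes, with 81 and 38 fragments. Among them were Ift27, at -0.59 and 0.39, Arl3, at -0.44 and 0.05, Bbs2, at 0.09 and 0.46, and Ift74, at -0.42 and -0.19. Dynein and its cofactors, the minus-end counterpart of kinesins, had medians of -0.04 and 0.00 (16 compared in each line) and none passed a threshold. The 4 of them with the largest values were Dctn5 (-0.14 and -0.28), Nde1 (0.19 and 0.27), Dynll1 (-0.22 and 0.00) and Ndel1 (-0.19 and -0.07).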

How the data were processed

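RNA of 4 libraries was analysed. Per the labels, reads were trimmed with Trimmomatic 0.36 and processed with HISAT2, Cufflinks 2.2.1 and Cuffdiff. Gene by gene, the files deposited hold estimated counts as well as FPKM, which is scaled to transcript length and library size. The submitters' notes name GRCm39, but the loci of all 42 members overlap the GRCm38 gene of the same name and only 14 the GRCm39 gene, so coordinates are GRCm38. The deposited estimated counts were scaled per library. Between 97.1% and 97.7% of nonzero values were whole multiples of 1 step within 0.05, and dividing by it gave the fragments, used for intervals (exact conditional binomial) and the floor of 3.

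Fold changes used the deposited counts with TMM scaling (edgeR 4.0.16, R 4.3.3) and 1 count added, for genes averaging 10 or more counts over the 2 libraries of the line. The tests used counts rounded to whole numbers and edgeR's quasi-likelihood test over all 4 libraries (terms for line and hairpin), for genes averaging 10 or more. DESeq2 1.42.0, limma 3.58.1, other scalings, filters, added counts and FPKM (pseudocount 0.1) were alternatives. With 1 library per condition, the edgeR p-values rest on a spread taken from the trend over all genes, not on replicates of a condition. Members and gene lists were chosen with earlier results of these data known. Every mitotic kinesin was named, as was every other kinesin averaging 10 or more counts in either line, and of each partner list up to 4 genes with the largest fold change in either line averaging 50 or more counts in both. Motif searches, intervals and plots used Python 3.11.15, scipy 1.17.1, pandas 2.3.3, numpy 2.4.6 and matplotlib 3.10.9.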

Additional observations from a re-analysis of the deposited data

Results flagged for a closer look

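The 6 mitotic kinesins Kif18b, Kif20a, Kif20b, Kif22, Kif23 and Kif2c are listed because the knockdown library was higher in CT26 and lower in MC38, with counting intervals on opposite sides of no change, as for 3.14% of the 11928 genes compared in both lines. The log2 fold change in CT26 minus that in MC38 was 1.09 for Kif22, 1.00 for Kif20a, 0.84 for Kif23, 0.82 for Kif2c, 0.66 for Kif18b and 0.61 for Kif20b. With 1 library per condition, no test of this difference was run. By the deposited FPKM, all 6 kept these directions in both lines.

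Kifc5c-ps, a pseudogene name left out of the family, is listed because its count passed the floor of 3 fragments in a library, with 1 fragment in CT26 shGFP, 6 in CT26 shmaurka-1, 3 in MC38 shGFP and 0 in MC38 shmaurka-1.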

How the results depend on the processing

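The median log2 fold change of the mitotic kinesins lay between 0.64 and 0.70 in CT26 and between -0.15 and -0.09 in MC38 under every scaling, added count, filter and value tried, and the counts of mitotic kinesins past the thresholds stayed within 1.5 times of those reported. Of the alternatives to class counts, medians and test counts, 69 gave a like value and 13 moved. Among single differences between the lines, 29 values were within their standard error, 37 moved and 2 called ones turned.

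The other kinesins past a threshold in CT26, 2 as reported, numbered 1 with DESeq2 size factors, 0 with 5 counts added, 1 with a mean of at least 50 counts, 8 with a mean of at least 1 count and 1 by FPKM. In MC38, 1 as reported became 0 with a mean of at least 50, 2 with a mean of at least 1 and 0 by FPKM. The kinesins called for the effect common to both lines, 4 as reported, numbered 2 with total-count scaling (2.27% of all genes called) and 0 with a mean of at least 50 (1.91%), with no block for the line (0 of 13984 genes), with limma-voom (0.844%) and with DESeq2 (0.365%), against 2.41% of all genes as reported. The cause was not tested, except that a filter changes which genes are tested. In the shGFP libraries alone, the log2 difference between CT26 and MC38 was -0.11 for Kif14 and -0.069 for Kif2c, the reverse of the fit over 4 libraries. No replicate could be left out, because each condition has 1 library. Kif7, whose difference was not called, also changed sign, to 0.13 in the shmaurka-1 libraries alone. With total-count scaling, Kif2c, Kif13a, Kif1c and Kif21a changed sign and were not called. DESeq2 called 10 kinesins higher in CT26 (29.2% of all genes) and 11 in MC38 (31.3%), against 15 and 14 as reported. Members with few fragments, such as Kif9, Kifc2 and Kif21b in CT26, have wide intervals.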
